A study of Danio rerio with 24 samples.

Results

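In whole zebrafish embryos at 4 days post fertilization, RNA was sequenced after a knockdown aimed at tardbp and tardbpl, the paralogs that encode TDP-43 in this fish. The libraries were chosen by their line: the 6 libraries of the tardbp line, out of 24 in the series, which also holds a smn1 knockdown and activation of lin28a or sox9b. In the tardbp line, 3Tg embryos carried the CRISPR-Q components and a gRNA array against tardbp and tardbpl, and 2Tg embryos of the same crosses carried the components with no gRNA. Each group had 3 libraries. Embryos of both groups were raised at 28.5 °C, carried QFvpr, a transcriptional driver placed behind the promoter of the heat-shock gene hsp70l, and were heated for 1 h at 2 and at 3 days. The 2Tg group therefore shared the heat and the components, and the labels list no group with a gRNA that lacks a zebrafish target. The cells in which the other components are active, the number of embryos behind each library and the origin of the replicates in separate clutches are not given in the sources used here. The p values below therefore measure the spread between these libraries, which may be technical. The question of the comparison was how far the guide array lowers its targets and how selectively.

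TDP-43 is a nuclear protein that binds UG-rich RNA, represses the splicing of cryptic exons in mammalian cells and limits its own messenger RNA by feedback. It forms cytoplasmic aggregates in most cases of amyotrophic lateral sclerosis (ALS), a disease of motor neurons. In zebrafish, loss of tardbp is buffered by a splice form of tardbpl that encodes a full-length protein, and embryos without either gene show defects of skeletal muscle, motor axons and blood vessels.

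Levels are in TPM, the share of a library's transcripts after correction for length, rescaled in each library to 1000000 after leaving out zgc:158463, FO704772.3 and AL935186.10. These 3 genes took 34.3% of the scale in 3Tg replicate 3 and between 0.229% and 0.569% in the other 5 libraries. The deposited TPM of 3Tg replicate 3 summed to only 778190, against 986919 to 989496 in the others, and the reason was not tested. Without the 3 genes 435480 TPM were left in it, so the rescaling multiplied that library by 2.296 and the others by 1.01 to 1.02. In 3Tg replicate 3, 4104 genes stood at 0, against 2646 to 3522 in the others. The sequencing depth is unknown, since the values are TPM. Libraries correlated with Pearson's r of 0.899 to 0.949 within 3Tg, 0.917 to 0.961 within 2Tg and 0.827 to 0.952 between the groups, on log2 values across genes. 3Tg replicate 3 correlated at 0.949 and 0.952 with 2Tg replicates 2 and 3, but at 0.924 and 0.899 with 3Tg replicates 1 and 2. By this measure it was closer to those 2Tg libraries than to its own group. The library 2Tg replicate 1 also stood apart: of 6 libraries it was the lowest in 5278 of the 19591 genes tested, but in 28 of 31 exocrine pancreas genes and 35 of 42 photoreceptor genes, and it was the highest in 46 of 61 cell cycle genes. Over all genes tested, 2Tg replicate 1 was the highest library in 20%. A difference is the mean log2(TPM + 1) of 3Tg minus that of 2Tg, so that it understates the change of genes of low level. Of 25429 genes, 19591 had at least 1 TPM in at least 3 of the 6 libraries and were tested with limma, a linear model with a shared variance prior. At that limit psmb12 was just inside and fam166b just outside. The labelled tissue, the whole embryo, holds many cell types, and fewer cells of a type and less RNA per cell cannot be told apart in these libraries.

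Both targets were lower on average in 3Tg embryos, and neither passed the test over all genes. The tardbp transcript (ENSDARG00000040031) stood at 75.7, 81.2 and 111 TPM in 3Tg embryos, against 148, 110.1 and 120.2 TPM in 2Tg embryos. 3Tg replicates 1 and 2 lay below the 2Tg range, and 3Tg replicate 3 lay just above its lower end. The means were 89.3 ± 18.97 TPM in 3Tg and 126 ± 19.5 TPM in 2Tg (SD, n = 3 each), so that 3Tg embryos held 70.8% of the 2Tg level. The difference was −0.50 on the log2 scale (SE 0.21), with adjusted p = 0.438 in limma and p = 0.2 in a two-sided exact permutation test, whose smallest value with 3 against 3 is 0.1.

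The tardbpl transcript (ENSDARG00000004452) stood at 119, 123 and 176 TPM in 3Tg embryos, against 219, 199.7 and 184 TPM in 2Tg embryos. The groups did not overlap, and 3Tg replicate 3 was again the closest to 2Tg. The means were 139 ± 31.9 TPM in 3Tg and 201 ± 17.8 TPM in 2Tg (SD, n = 3 each), or 69.3% of the 2Tg level. The difference was −0.54 (SE 0.20), with adjusted p = 0.438 in limma and p = 0.1 in the exact permutation test. Without 3Tg replicate 3 the 3Tg level was 62.2% of 2Tg for tardbp and 60.2% for tardbpl.

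**Figure D1:**
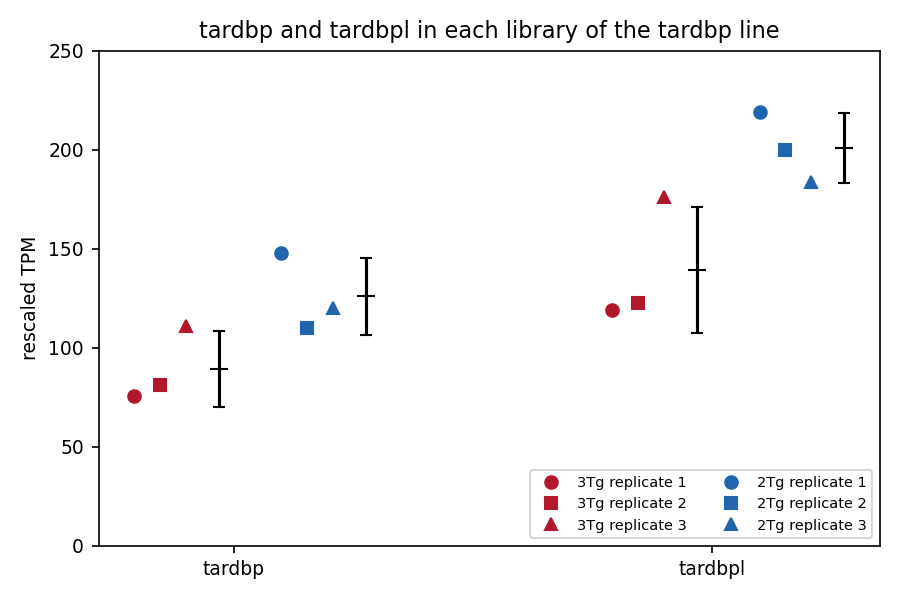
Rescaled TPM of tardbp and tardbpl (linear axes from 0) in the 3 3Tg and 3 2Tg libraries; points are libraries, with a marker shape for each replicate number, and black bars the mean ± SD. For tardbpl the highest 3Tg library (176) stays below the lowest 2Tg library (184), and for tardbp 3Tg replicate 3 (111) lies within the 2Tg range.

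The paralogs differed by nearly the same proportion. The level of tardbpl divided by that of tardbp was 1.57, 1.51 and 1.59 in 3Tg embryos, against 1.48, 1.81 and 1.53 in 2Tg embryos (exact permutation p = 0.9, two-sided, n = 3 each). Their sum was 195, 204 and 287 TPM in 3Tg embryos, against 367, 309.8 and 304 TPM in 2Tg embryos, with no overlap (exact permutation p = 0.1, the smallest possible). In the 18 libraries of the other 3 lines, which were normalized in separate tables, tardbp ran from 70.7 to 119 TPM and tardbpl from 121 to 188 TPM. For tardbp, the 3Tg libraries at 75.7 to 111 TPM lay within the range of these lines, in which it was not targeted. For tardbpl, 3Tg replicate 1 at 119 TPM lay just below that range, and 3Tg replicates 2 and 3 at 123 and 176 TPM lay within it. The 2Tg libraries of the tardbp line reached above it, up to 148 TPM for tardbp and 219 TPM for tardbpl.

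The targets belong to a family of abundant nuclear RNA-binding proteins, the hnRNPs (heterogeneous nuclear ribonucleoproteins). They were followed in a list that is wider than this family, and most other members of the list were lower by sign too. Of 33 genes tested on the list of TDP-43 and related RNA-binding proteins, 32 were lower in 3Tg by sign, where 62.9% of all genes tested were lower. No member was called at adjusted p under 0.05, nor was any of the 19591 genes. In 16 members, or 48.5%, the 3 values of 3Tg lay below those of 2Tg without overlap, where 15.3% of all genes did so. The list's median difference was −0.50, against −0.13 for all genes tested. In 23 of the 33 members 2Tg replicate 1 was the highest library, against 20% of all genes. The median relative to all genes was −0.37, with −0.19 when that library was left out. Among the 31 members other than the targets, 15 had a lower difference than tardbp and 14 a lower one than tardbpl, and the median of the 31 was −0.46. Of all genes tested, 15.5% had a lower difference than tardbp and 12.9% a lower one than tardbpl.

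hnrnpl, which binds CA-rich RNA and regulates splicing, had 125, 116 and 171 TPM in 3Tg embryos, against 261, 276 and 231 TPM in 2Tg embryos, a difference of −0.91. taf15, an RNA-binding protein, had 135, 105 and 156 TPM in 3Tg embryos, against 240.1, 191 and 200.2 TPM in 2Tg embryos, a difference of −0.68. hnrnpub, a homolog of the nuclear scaffold protein hnRNP U, had 62.6, 54.6 and 84.6 TPM in 3Tg embryos, against 132, 108 and 103 TPM in 2Tg embryos, a difference of −0.77. In these 3 genes every 3Tg library lay below every 2Tg library. The A/B-type members hnrnpabb, hnrnpaba and hnrnpa0b differed by −0.94, −0.62 and −0.79, and hnrnpa0b overlapped between the groups.

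Of the members chosen for mention after their values were seen, tia1, a stress-granule protein, had 34.3, 28.95 and 50.8 TPM in 3Tg embryos, against 80.8, 61.9 and 56.8 TPM in 2Tg embryos, with no overlap. hnrnpa3 was the single member that was higher, at 47.4, 37.8 and 31.5 TPM in 3Tg embryos, against 16.6, 25.4 and 28.8 TPM in 2Tg embryos, also with no overlap. Set against the median log2 level of the 31 other members of the same library, tardbp stood at −0.50, −0.25 and −0.28 in 3Tg embryos, against −0.16, −0.29 and −0.28 in 2Tg embryos, and these ranges overlapped. tardbpl stood at 0.15, 0.34 and 0.38 in 3Tg embryos, against 0.40, 0.56 and 0.33 in 2Tg embryos, with overlap again. Whether the other list members and the targets share a reason for the lower levels was not tested.

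**Figure D2:**
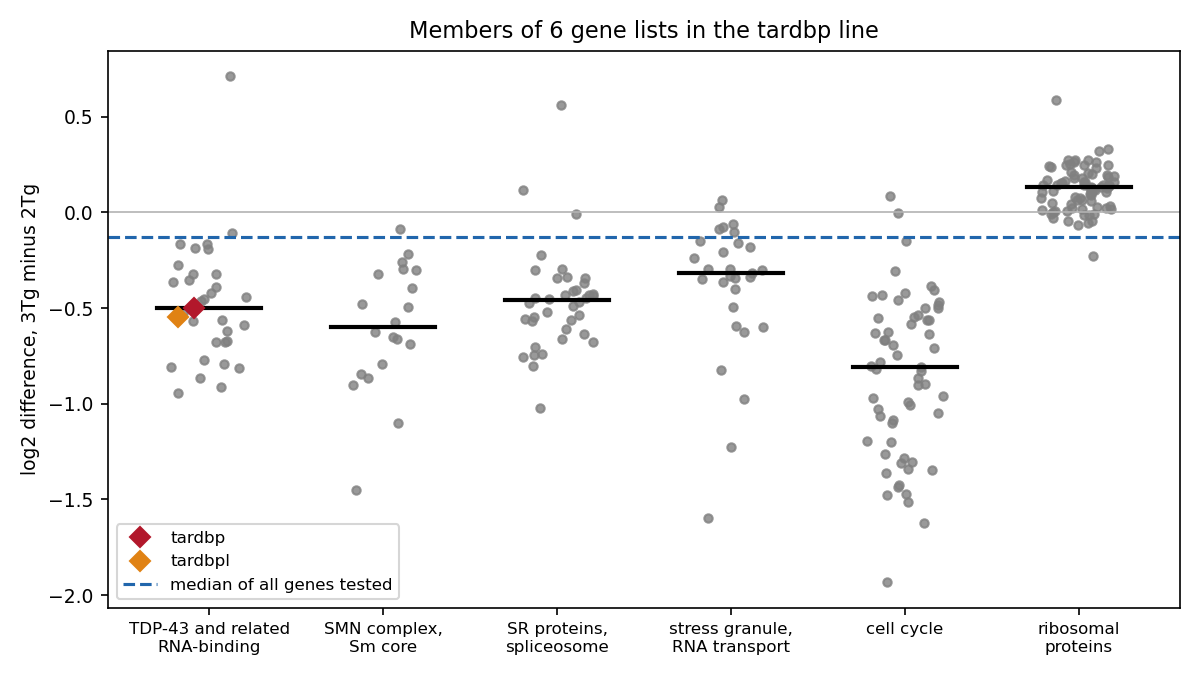
Difference of each tested gene of 6 lists (3Tg minus 2Tg, log2 of rescaled TPM + 1); points are genes, black bars list medians, and the dashed line is the median of all genes tested (−0.13). The targets, drawn as diamonds, lie amid the RNA-binding proteins, the cell-cycle genes reach down to −1.93 and the ribosomal protein genes lie close to 0 with a median of 0.13.

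Most genes of other parts of the RNA-processing machinery were lower by sign in the same libraries. All 20 genes tested of the SMN complex and Sm core, which assemble and form the small nuclear ribonucleoproteins of the spliceosome, were lower by sign; their median was −0.60, and 7 of them, or 35.0%, had groups that did not overlap, where 15.3% of all genes were lower in this way. The median relative to all genes was −0.47, with −0.24 when 2Tg replicate 1 was left out and −0.204 when 3Tg replicate 2 was. snrpf, which encodes the Sm ring protein F, had 47.02, 42.7 and 37.6 TPM in 3Tg embryos, against 115, 186 and 75.8 TPM in 2Tg embryos, a difference of −1.45. prmt5, the arginine methyltransferase that modifies Sm proteins, had 13.1, 10.9 and 16.5 TPM in 3Tg embryos, against 25.9, 29.4 and 22.5 TPM in 2Tg embryos. clns1a, a partner of PRMT5 that binds Sm proteins before assembly, had 19.9, 18.5 and 26.5 TPM in 3Tg embryos, against 44.6, 34.3 and 35.03 TPM in 2Tg embryos. In these 3 genes the groups were apart. snrpb, the Sm B protein, had 136, 142 and 272 TPM in 3Tg embryos, against 428, 264 and 272 TPM in 2Tg embryos, and its 3Tg replicate 3 fell within the 2Tg range. smn1, the scaffold of the complex and the target of the other knockdown, differed by −0.09 here, a sign that turned after median centring.

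Of 38 SR proteins and core spliceosome genes, 36 were lower by sign and 17 of them (44.7%) without overlap. Of all genes, 62.9% were lower by sign and 15.3% without overlap. The list's median was −0.46. Relative to all genes it was −0.33, with −0.22 when 2Tg replicate 1, the highest library in 22 of the 38 genes, was left out. That library was the highest in 20% of all genes. SR proteins bind exonic enhancers and recruit the spliceosome. srsf5a had 261, 302 and 287 TPM in 3Tg embryos, against 393, 385 and 372 TPM in 2Tg embryos. srsf7a had 97.8, 113 and 126 TPM in 3Tg embryos, against 177, 162 and 150.4 TPM in 2Tg embryos. eftud2, a GTPase of the U5 particle, had 42.9, 49.4 and 57.6 TPM in 3Tg embryos, against 87.6, 69.9 and 71.98 TPM in 2Tg embryos. All 3 had groups apart. srsf9 had 18.9, 24.04 and 39.2 TPM in 3Tg embryos, against 59.6, 68.1 and 39.2 TPM in 2Tg embryos, where the highest 3Tg and lowest 2Tg libraries met. In the list of stress-granule and RNA-transport genes, 27 of 29 were lower by sign and 9 (31.0%) without overlap, against 15.3% of all genes. The list's median was −0.31. Relative to all genes that median was −0.18, and it was −0.11 when either 2Tg replicate 1 or 2Tg replicate 2 was left out. g3bp1, which nucleates stress granules, had 61.1, 28.5 and 94.4 TPM in 3Tg embryos, against 146, 139 and 107 TPM in 2Tg embryos. caprin1a, a partner of G3BP1, had 21.2, 19.8 and 34.01 TPM in 3Tg embryos, against 54.2, 54.7 and 38.9 TPM in 2Tg embryos. kpna2, an importin alpha, had 34.6, 13.9 and 53.7 TPM in 3Tg embryos, against 187, 67.9 and 60.9 TPM in 2Tg embryos. All 3 had groups apart, with 3Tg replicate 2 the lowest library in each.

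The cell-cycle list was lower by sign in 60 of 61 genes, with a median of −0.81. In 33 genes (54.1%) the groups did not overlap, where 15.3% of all genes were lower in this way. Its median relative to all genes was −0.68, with −0.40 when 2Tg replicate 1 was left out and −0.37 when 3Tg replicate 2 was left out. cdc20, an activator of the anaphase-promoting complex, had 13.04, 4.52 and 28.1 TPM in 3Tg embryos, against 84.3, 32.5 and 43.03 TPM in 2Tg embryos, a difference of −1.93 (SE 0.59). aurka, a kinase of the spindle poles, had 8.02, 4.18 and 15.1 TPM in 3Tg embryos, against 31.6, 22.6 and 20.03 TPM in 2Tg embryos. tpx2, which activates that kinase, had 23.8, 17.9 and 30.6 TPM in 3Tg embryos, against 121, 48.1 and 46.8 TPM in 2Tg embryos. kif20a, a kinesin of cytokinesis, had 4.96, 3.54 and 9.004 TPM in 3Tg embryos, against 25.97, 12.6 and 11.02 TPM in 2Tg embryos. In these 4 genes the order was alike: 3Tg replicate 2 was the lowest library, 3Tg replicate 3 the highest of its group and 2Tg replicate 1 the highest of all. hmgb2a, a chromatin protein of dividing cells, and tuba8l4, an alpha-tubulin, are the most abundant members. They overlapped between the groups, at 342, 256 and 544 TPM in 3Tg embryos, against 1057, 449 and 539.7 TPM in 2Tg embryos for hmgb2a. Summed over the list, the level was 2289, 1484 and 3072 TPM in 3Tg embryos, against 5648, 3114 and 3321 TPM in 2Tg embryos.

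Over all genes, no gene was called, and the balance of higher and lower genes turned with the scaling. An unadjusted p under 0.05 was reached by 533 genes that were higher (2.72%) and 1695 that were lower (8.65%), and the smallest adjusted p was 0.438 in limma. The groups did not overlap in 654 genes that were higher (3.34%) and 2991 that were lower. With each library centred on its median, the count at an unadjusted p under 0.05 turned over, to 975 genes higher and 709 lower; it was 911 higher and 896 lower after quantile normalization. Without overlap, 1241 genes were higher and 1513 lower after median centring, and the median difference of all genes was −0.03 in place of −0.13. The direction of single genes near the median of all genes is therefore set by the scaling. The median of a list relative to all genes changed sign under some setting, the fits that leave out 1 library included, for 8 lists (hatching gland, islet, endothelium, unfolded protein response, p53 targets, apoptosis, autophagy, mitochondrially encoded genes) and under none of those run for the other lists.

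Of named genes with a mean of at least 5 TPM and groups that did not overlap, the 12 of smallest p in each direction are given as values. The lowest p among the lower genes belonged to nr2f6a, an orphan nuclear receptor, at 18.99, 21.1 and 20.4 TPM in 3Tg embryos, against 45.6, 48.4 and 41.03 TPM in 2Tg embryos, a difference of −1.12 (SE 0.18). mtdhb, a homolog of metadherin, had 20.3, 22.2 and 22.1 TPM in 3Tg embryos, against 40.4, 41.2 and 40.9 TPM in 2Tg embryos. mprip, a protein that binds myosin phosphatase, had 22.2, 23.1 and 25.9 TPM in 3Tg embryos, against 49.5, 48.97 and 44.5 TPM in 2Tg embryos. These genes had narrow groups, with 2Tg close to 2 times the 3Tg level. nradd, a relative of the neurotrophin receptor, had 3.104, 3.801 and 3.47 TPM in 3Tg embryos, against 8.74, 10.2 and 11.1 TPM in 2Tg embryos. tiprl, which binds the catalytic subunits of PP2A-type phosphatases, had 10.5, 12.9 and 10.7 TPM in 3Tg embryos, against 23.4, 25.5 and 24.5 TPM in 2Tg embryos. prmt6, another arginine methyltransferase, had 5.66, 4.36 and 5.28 TPM in 3Tg embryos, against 14.8, 12.1 and 12.4 TPM in 2Tg embryos. In this set too the 3Tg libraries lay close together. The choice by smallest p favours narrow groups, so this closeness is no separate result. polr2k, a small subunit shared by the nuclear RNA polymerases, differed by −0.97, ccdc77 by −1.44 and lmnb2, which encodes lamin B2 of the nuclear envelope, by −1.11. The others of the 12 were snrpf and the hatching enzymes he1.1 and he1.2.

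Among the 12 that were higher, ctsl.1, a cathepsin L of the list of hatching gland genes, had 115, 185 and 54.8 TPM in 3Tg embryos, against 10.1, 24.7 and 30.5 TPM in 2Tg embryos, a difference of 2.36. pdk2b, a pyruvate dehydrogenase kinase, had 95.01, 254 and 21.2 TPM in 3Tg embryos, against 4.15, 10.6 and 11.9 TPM in 2Tg embryos, a difference of 3.16. nfil3-6, a basic leucine zipper repressor related to clock output, had 18.2, 34.8 and 9.53 TPM in 3Tg embryos, against 2.75, 5.67 and 4.89 TPM in 2Tg embryos. In these 3 genes 3Tg replicate 2 was the highest library and 3Tg replicate 3 the nearest to 2Tg. chia.6 (ENSDARG00000093193, the more abundant of a pair of entries with this symbol), an acidic chitinase, had 18.1, 13.8 and 10.5 TPM in 3Tg embryos, against 0.984, 2.79 and 4.48 TPM in 2Tg embryos. The other chia.6 entry of the pair (ENSDARG00000116259) did not share this rise, with a difference of 0.0789. tppp3, a protein that promotes tubulin polymerization, had 32.1, 19.97 and 17.1 TPM in 3Tg embryos, against 5.51, 10.9 and 8.997 TPM in 2Tg embryos. rgcc, a regulator of the cell cycle, had 111, 140.3 and 69.01 TPM in 3Tg embryos, against 37.6, 53.1 and 45.7 TPM in 2Tg embryos. Here 3Tg replicate 1 or 2 was the highest. cabp2b, a calcium-binding protein, had 12.4, 12.99 and 12.02 TPM in 3Tg embryos, against 5.51, 6.61 and 6.12 TPM in 2Tg embryos, with narrow groups. efna1b, an ephrin ligand, had 42.6, 41.8 and 36.03 TPM in 3Tg embryos, against 20.1, 20.97 and 26.02 TPM in 2Tg embryos. mtbl, annotated as a metallothionein-like gene, had 106, 97.9 and 112 TPM in 3Tg embryos, against 63.5, 40.7 and 66.8 TPM in 2Tg embryos. rgra, an opsin of the retinal pigment epithelium, differed by 1.28. The lens gamma-crystallins crygm2d16 and crygm2d2 differed by 0.79 and 0.89. These last genes belong to a family of near-identical copies among which reads can be split, so their levels are uncertain.

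**Figure D3:**
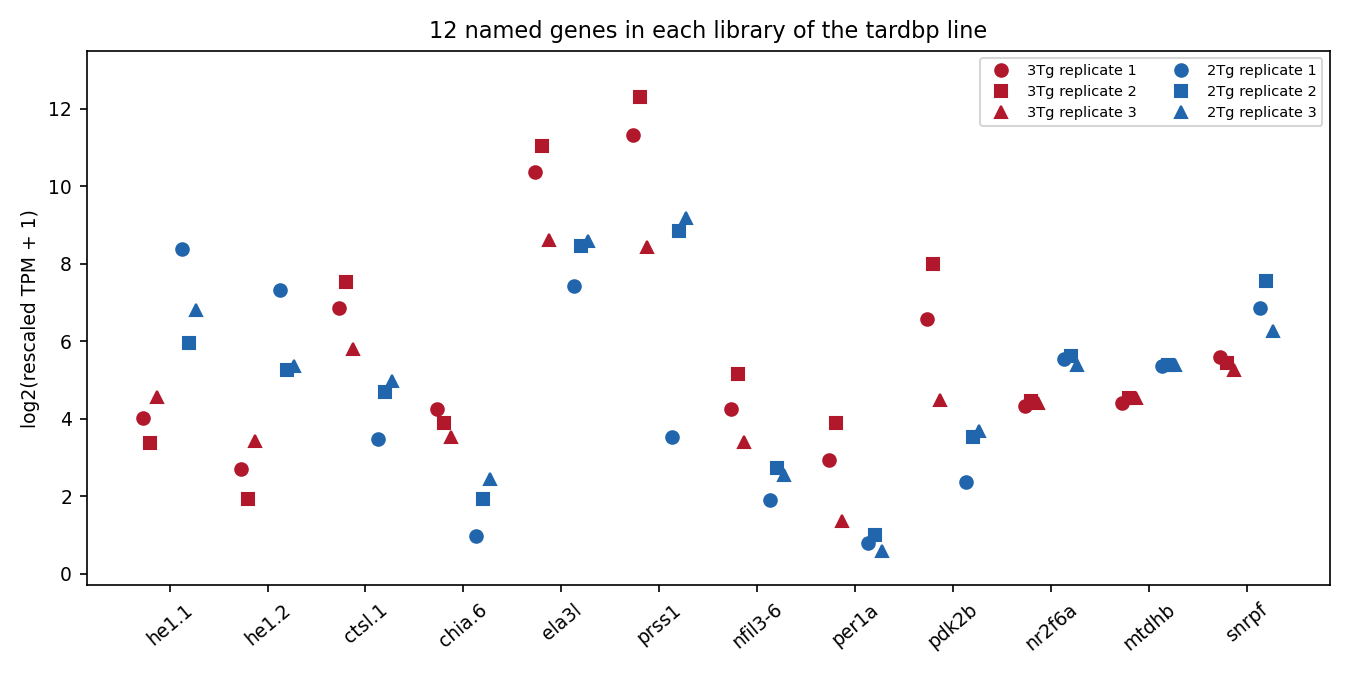
Level of 12 named genes, as log2(rescaled TPM + 1), in the 3 3Tg libraries (red, left of each pair) and the 3 2Tg libraries (blue); marker shapes are replicate numbers. The hatching enzymes he1.1 and he1.2 lie lower in 3Tg by more than the spread within it, and for the trypsin prss1 3Tg replicate 3 falls between the 2Tg libraries.

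**Figure D4:**
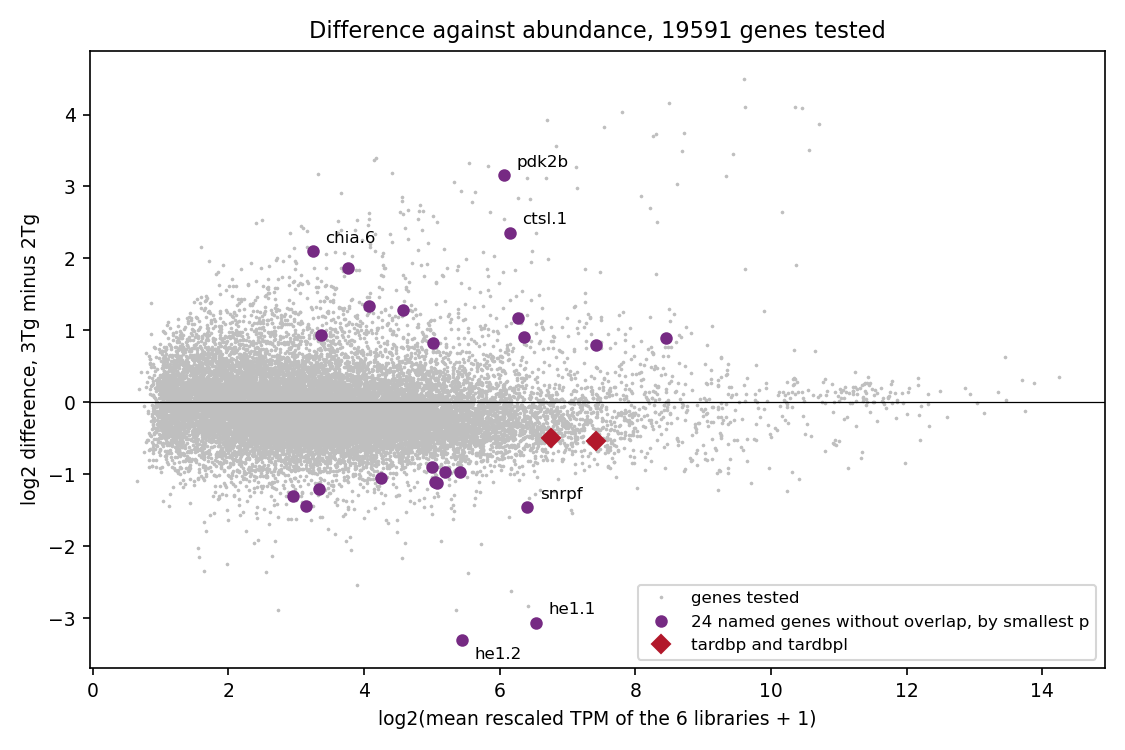
Difference (3Tg minus 2Tg, log2) of each of the 19591 genes tested against log2 of its mean rescaled TPM over the 6 libraries + 1, with the targets and the 24 named genes marked. The cloud is centred a little below 0 (median −0.13), and the targets at −0.50 and −0.54 lie well inside it.

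Hatching gland cells are a set of cells on the head and yolk that release enzymes to digest the egg envelope. They were followed through a list of 9 genes tested. The hatching enzyme he1.2 had 5.495, 2.81 and 9.81 TPM in 3Tg embryos, against 161, 37.3 and 40.5 TPM in 2Tg embryos, a difference of −3.30 (SE 0.59). Its close copy he1.1 had 15.3, 9.34 and 22.6 TPM in 3Tg embryos, against 334, 61.3 and 111 TPM in 2Tg embryos, a difference of −3.07 (SE 0.58). These copies can share reads. Every 3Tg library lay below every 2Tg library, and 2Tg replicate 1 was the highest. In the 18 libraries of the other 3 lines, which were normalized in separate tables, he1.1 ran from 0.226 to 58.4 TPM and he1.2 from 0.226 to 35.8 TPM. The 3Tg libraries of the tardbp line lay inside these ranges and its 2Tg libraries above them. Without 2Tg replicate 1 the differences were −2.63 for he1.2 and −2.40 for he1.1. The genes of the list did not all go this way, since ctsl.1 was higher. Whether ctsl.1 is expressed in the gland was not tested, and it was lowest in 2Tg replicate 1. The secretory gene agr2 had 107, 72.7 and 65.3 TPM in 3Tg embryos, against 145, 355 and 77.6 TPM in 2Tg embryos, with overlap, and xbp1, a transcription factor of secretory cells, differed by −0.16. The median of the 9 genes was −0.14, near that of all genes.

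Genes that TDP-43 regulates elsewhere and ALS-linked genes went both ways. Of 25 genes regulated by TDP-43 in other studies, mostly in mammalian neurons, 11 were higher by sign and 14 lower, where 37.1% of all genes were higher, and the median was −0.06. Without overlap, 5 (20%) were lower and 1 (4%) higher, near the 15.3% and 3.34% of all genes. hdac6, a deacetylase whose messenger RNA TDP-43 sustains in human cells, had 9.04, 9.47 and 13.9 TPM in 3Tg embryos, against 17.95, 22.6 and 16.3 TPM in 2Tg embryos, with groups apart. ranbp1, which assists nuclear transport by Ran, had 47.9, 33.3 and 53.8 TPM in 3Tg embryos, against 69.9, 61.8 and 60.3 TPM in 2Tg embryos, also apart. The zebrafish homologs of stathmin-2, a growth-cone protein whose messenger RNA is truncated when human TDP-43 is lost, include stmn2a at 80.7, 71.99 and 79.7 TPM in 3Tg embryos, against 68.7, 103 and 81.8 TPM in 2Tg embryos, with overlap and a sign that turned under quantile normalization. stmn4, a further stathmin, was higher at 106, 91.3 and 89.9 TPM in 3Tg embryos, against 40.9, 71.05 and 79.3 TPM in 2Tg embryos, with groups apart. Levels per gene do not show cryptic exons or truncated forms.

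Filamin C, an actin cross-linker of muscle, has been described as raised in zebrafish that lack both TDP-43 genes. The settings differ: the 3Tg embryos still held 70.8% of the 2Tg level of tardbp and 69.3% of that of tardbpl. Only RNA of whole embryos was measured, not protein. Here flncb had 11.8, 11.97 and 15.2 TPM in 3Tg embryos, against 26.98, 16.7 and 17.5 TPM in 2Tg embryos, lower without overlap, and flnca had 21.8, 21.8 and 15.9 TPM in 3Tg embryos, against 38.7, 14.6 and 19.3 TPM in 2Tg embryos, a difference of −0.17 with overlap and 0.21 without 2Tg replicate 1. Of 28 ALS-linked genes, 14 were higher by sign and 14 lower, and the median was −0.03. pfn1, the actin-binding profilin, had 1544, 1125 and 2105 TPM in 3Tg embryos, against 2229.7, 2476 and 2228 TPM in 2Tg embryos, and vcp, an ATPase that extracts proteins for degradation, had 249, 275 and 278 TPM in 3Tg embryos, against 328, 305 and 322 TPM in 2Tg embryos. ubqln4, a ubiquilin that shuttles proteins to the proteasome, had 59.8, 52.1 and 70.5 TPM in 3Tg embryos, against 86.1, 94.5 and 71.9 TPM in 2Tg embryos. These 3 genes, 10.7% of the list, were its only members lower without overlap, fewer than the 15.3% of all genes. Relative to all genes the median of the ALS-linked list was 0.10. ccnf, a cyclin that is also a ubiquitin ligase subunit, had 3.06, 1.78 and 6.21 TPM in 3Tg embryos, against 17.3, 7.59 and 5.36 TPM in 2Tg embryos, where 3Tg replicate 3 lay above the lowest 2Tg library.

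Motor neuron and neuromuscular junction genes, 31 in all, had a median of −0.02, and 13 were higher by sign. Relative to all genes the median was 0.11. Of the 31, 3 (9.68%) were lower without overlap, fewer than the 15.3% of all genes. gap43, a growth-cone protein, had 94.9, 70.8 and 123 TPM in 3Tg embryos, against 155, 179.9 and 119 TPM in 2Tg embryos, with overlap. The motor neuron transcription factor mnx2a had 1.86, 1.09 and 0 TPM in 3Tg embryos, against 2.38, 2.67 and 2.19 TPM in 2Tg embryos. These levels are near the limit of 1 TPM set for testing. isl2b, also a motor neuron transcription factor, had 9.06, 10.5 and 8.201 TPM in 3Tg embryos, against 15.9, 12.4 and 11.05 TPM in 2Tg embryos. Both factors were lower without overlap. The neuron list of 29 genes had a median of 0.15, with 24 of its genes lowest in 2Tg replicate 1; relative to all genes it was 0.28, with 0.0569 when that library was left out, 0.15 when 3Tg replicate 2 was and 0.43 when 2Tg replicate 3 was. The glia list of 21 genes had a median of 0.05. tubb5, a beta-tubulin of young neurons, had 153, 102 and 196 TPM in 3Tg embryos, against 302, 209 and 241 TPM in 2Tg embryos, and fabp7a, a fatty-acid binding protein of radial glia, had 501, 271 and 635 TPM in 3Tg embryos, against 1102, 691 and 766 TPM in 2Tg embryos. Both were lower without overlap. glulb, a glutamine synthetase, had 289.8, 278 and 273 TPM in 3Tg embryos, against 207, 198 and 236 TPM in 2Tg embryos, higher without overlap.

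Of 43 fast muscle genes, 25 were higher by sign, and the median was 0.03. tnnt3a, a fast troponin T, had 576, 220.5 and 556 TPM in 3Tg embryos, against 1218, 786 and 579 TPM in 2Tg embryos, lower without overlap. myhz1.1 (ENSDARG00000102414, the less abundant of a pair of entries with this symbol), a fast myosin heavy chain that shares sequence with its neighbours, had 79.4, 82.6 and 50.9 TPM in 3Tg embryos, against 7.35, 27.04 and 60.5 TPM in 2Tg embryos, and 2Tg replicate 1 was the lowest library. The more abundant myhz1.1 entry is not reported here, so these values do not stand for the pair. actc1b, the most abundant muscle actin here, had 12576, 13514 and 13519 TPM in 3Tg embryos, against 12930.3, 16405 and 13769 TPM in 2Tg embryos. Slow muscle had 11 of 15 genes higher by sign and a median of 0.21; set against all genes it was 0.34, with 0.19 when 3Tg replicate 1 was left out. In the list of muscle filamins and myosin chaperones, 17 of 27 genes were higher by sign, with a median of 0.20; set against all genes it was 0.33, with 0.21 when 2Tg replicate 3 was left out. hsp90aa1.1, the Hsp90 that folds muscle myosin, had 1051, 915 and 353 TPM in 3Tg embryos, against 266, 445 and 315 TPM in 2Tg embryos. fbxo32, the ubiquitin ligase atrogin-1 of muscle wasting, had 14.4, 114 and 4.97 TPM in 3Tg embryos, against 2.98, 3.67 and 4.13 TPM in 2Tg embryos, with groups apart and 3Tg replicate 2 far above the rest.

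The largest list medians were those of the exocrine pancreas and the enterocytes, and they came with a wide spread between libraries. Of 31 exocrine pancreas genes, 29 were higher by sign, with a median of 3.12. In 2 (6.45%) the 3Tg group lay above 2Tg without overlap, against 3.34% of all genes. prss1, a trypsin, had 2570.4, 5092 and 346 TPM in 3Tg embryos, against 10.5, 458 and 583 TPM in 2Tg embryos. prss59.2, another trypsin, had 2884, 5085 and 581 TPM in 3Tg embryos, against 3.73, 639 and 892 TPM in 2Tg embryos. cpa1, a carboxypeptidase, had 54.3, 199 and 6.11 TPM in 3Tg embryos, against 0, 6.41 and 9.58 TPM in 2Tg embryos. 3Tg replicates 1 and 2 lay far above every other library, 3Tg replicate 3 fell among 2Tg, and 2Tg replicate 1 was the lowest. This order held across the list: 3Tg replicates 1 and 2 lay above every 2Tg library in 27 of 31 genes, where 10.5% of all genes did so, 3Tg replicate 3 lay within the 2Tg range in 27, and 2Tg replicate 1 was the lowest library in 28. Of all genes, 52.6% had 3Tg replicate 3 within the 2Tg range, and 26.9% were lowest in 2Tg replicate 1. The summed level of the list was 19690, 36865 and 3030.2 TPM in 3Tg embryos, against 254, 3496 and 4749 TPM in 2Tg embryos. Its median relative to all genes was 3.25, with 1.83 when 2Tg replicate 1 was left out and 4.73 when 3Tg replicate 3 was left out. ela3l, an elastase, and spink4, a secreted protease inhibitor, were the members with groups apart, at 1317, 2089 and 389 TPM in 3Tg embryos, against 171, 350.0 and 382 TPM in 2Tg embryos for ela3l. ptf1a, the transcription factor that specifies exocrine cells, was chosen after its value was seen; it was lower, at 2.597, 2.69 and 2.85 TPM in 3Tg embryos, against 9.67, 3.03 and 5.08 TPM in 2Tg embryos, without overlap.

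Of 36 enterocyte genes, 31 were higher by sign, with a median of 1.16. None had groups apart, where 3.34% of all genes were higher and 15.3% lower in this way. cyp3a65, an intestinal cytochrome P450, had 138, 301 and 15.7 TPM in 3Tg embryos, against 1.07, 23.6 and 19.9 TPM in 2Tg embryos, in the order of the pancreas genes. chia.1, a chitinase, had 80.6, 157 and 11.6 TPM in 3Tg embryos, against 0.415, 17.4 and 17.9 TPM in 2Tg embryos. apoa1a, an apolipoprotein and the most abundant member, had 2864, 1035 and 5976 TPM in 3Tg embryos, against 5963, 3384 and 5029 TPM in 2Tg embryos, lowest in 3Tg replicate 2. The list was lowest in 2Tg replicate 1 in 27 of 36 genes, and its median relative to all genes was 1.29, with 0.72 without that library. Of 33 hepatocyte genes, 19 were higher by sign, with a median of 0.19. Relative to all genes that was 0.32, with 0.55 when 3Tg replicate 3 was left out and 0.21 when 2Tg replicate 2 was. ttr, the thyroxine carrier transthyretin, had 66.5, 56.8 and 14.4 TPM in 3Tg embryos, against 0, 11.2 and 15.5 TPM in 2Tg embryos, and cyp2ad2, a cytochrome P450, had 57.5, 61.8 and 7.82 TPM in 3Tg embryos, against 0.416, 8.55 and 8.35 TPM in 2Tg embryos. apoba, the structural protein of lipoproteins, was lower at 27.5, 21.6 and 27.5 TPM in 3Tg embryos, against 59.17, 30.3 and 43.9 TPM in 2Tg embryos, without overlap. The islet list, with 15 genes, had a median of −0.09, and insulin (ins) differed by 0.27, or −0.12 in the values as deposited.

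Photoreceptor and lens genes stand for the eye. Of 42 photoreceptor genes, 36 were higher by sign, with a median of 0.63. Without overlap, 1 (2.38%) was higher and 1 (2.38%) lower, against 3.34% and 15.3% of all genes. pde6ha, a cone phosphodiesterase subunit, had 2105, 3057 and 477 TPM in 3Tg embryos, against 33.01, 682 and 545 TPM in 2Tg embryos. grk7a, a cone opsin kinase, had 61.9, 51.8 and 24.96 TPM in 3Tg embryos, against 2.71, 25.6 and 26.2 TPM in 2Tg embryos. gngt2b, a cone transducin subunit, had 891, 383 and 610.0 TPM in 3Tg embryos, against 76.04, 762.3 and 976 TPM in 2Tg embryos, with overlap. 3Tg replicates 1 and 2 lay above every 2Tg library in 12 of the 42 genes (28.6%), where 10.5% of all genes did so. The lowest library was 2Tg replicate 1 in 35 of the 42. The median relative to all genes was 0.76, with 0.13 when 2Tg replicate 1 was left out and 1.15 when 2Tg replicate 3 was. Of 25 lens genes, 20 were higher by sign, 6 (24%) without overlap, where 3.34% of all genes were, with a median of 0.33. crygmx, a gamma-crystallin, had 302, 334 and 301 TPM in 3Tg embryos, against 135, 209 and 207 TPM in 2Tg embryos. cryaa, the lens chaperone alpha-A crystallin, had 37.1, 49.4 and 40.8 TPM in 3Tg embryos, against 25.3, 23.5 and 33.7 TPM in 2Tg embryos. cryba2a, a beta-crystallin, had 328, 411 and 367 TPM in 3Tg embryos, against 281, 248 and 245 TPM in 2Tg embryos. The most abundant members, crybb1 and crybb1l2, differed by 0.24 and 0.38 and overlapped between the groups. In the lens, 3Tg replicate 3 lay above every 2Tg library in 18 of 25 genes (72%), where 17.3% of all genes did so, and the median relative to all genes stayed between 0.33 and 0.58 whichever library was left out.

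Of 43 circadian clock genes, 28 were higher by sign, 6 (14.0%) without overlap and none lower without overlap, where 3.34% of all genes were higher and 15.3% lower in this way, with a median of 0.61. The repressors cry1b and ciartb had 11.5, 17.6 and 4.44 TPM in 3Tg embryos, against 2.21, 2.78 and 2.97 TPM in 2Tg embryos for cry1b and 14.6, 24.98 and 12.6 TPM in 3Tg embryos, against 6.98, 8.16 and 4.22 TPM in 2Tg embryos for ciartb. The output factor dbpb, which binds D-box promoter elements, had 11.1, 20.5 and 4.01 TPM in 3Tg embryos, against 1.197, 3.86 and 1.202 TPM in 2Tg embryos. per1a, a period gene chosen after its value was seen, had 6.69, 13.8 and 1.58 TPM in 3Tg embryos, against 0.734, 1.02 and 0.494 TPM in 2Tg embryos. In these 4 genes 3Tg replicate 2 was the highest library. The most abundant members, cry3a and tefa, overlapped between the groups. cry3a had 212, 269 and 207 TPM in 3Tg embryos, against 143, 230 and 288 TPM in 2Tg embryos, a difference of 0.11. tefa differed by 1.31. The activators clocka, clockb, arntl1a and arntl1b had differences of −0.37, −0.29, −0.46 and −0.26, and the sign for clocka, clockb and arntl1b turned when a library was left out. The hour at which each library was collected is not given in the sources used here, and its part in these values was not tested. Without 2Tg replicate 1 the list's median relative to all genes was 0.33, against 0.74 with it.

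**Figure D5:**
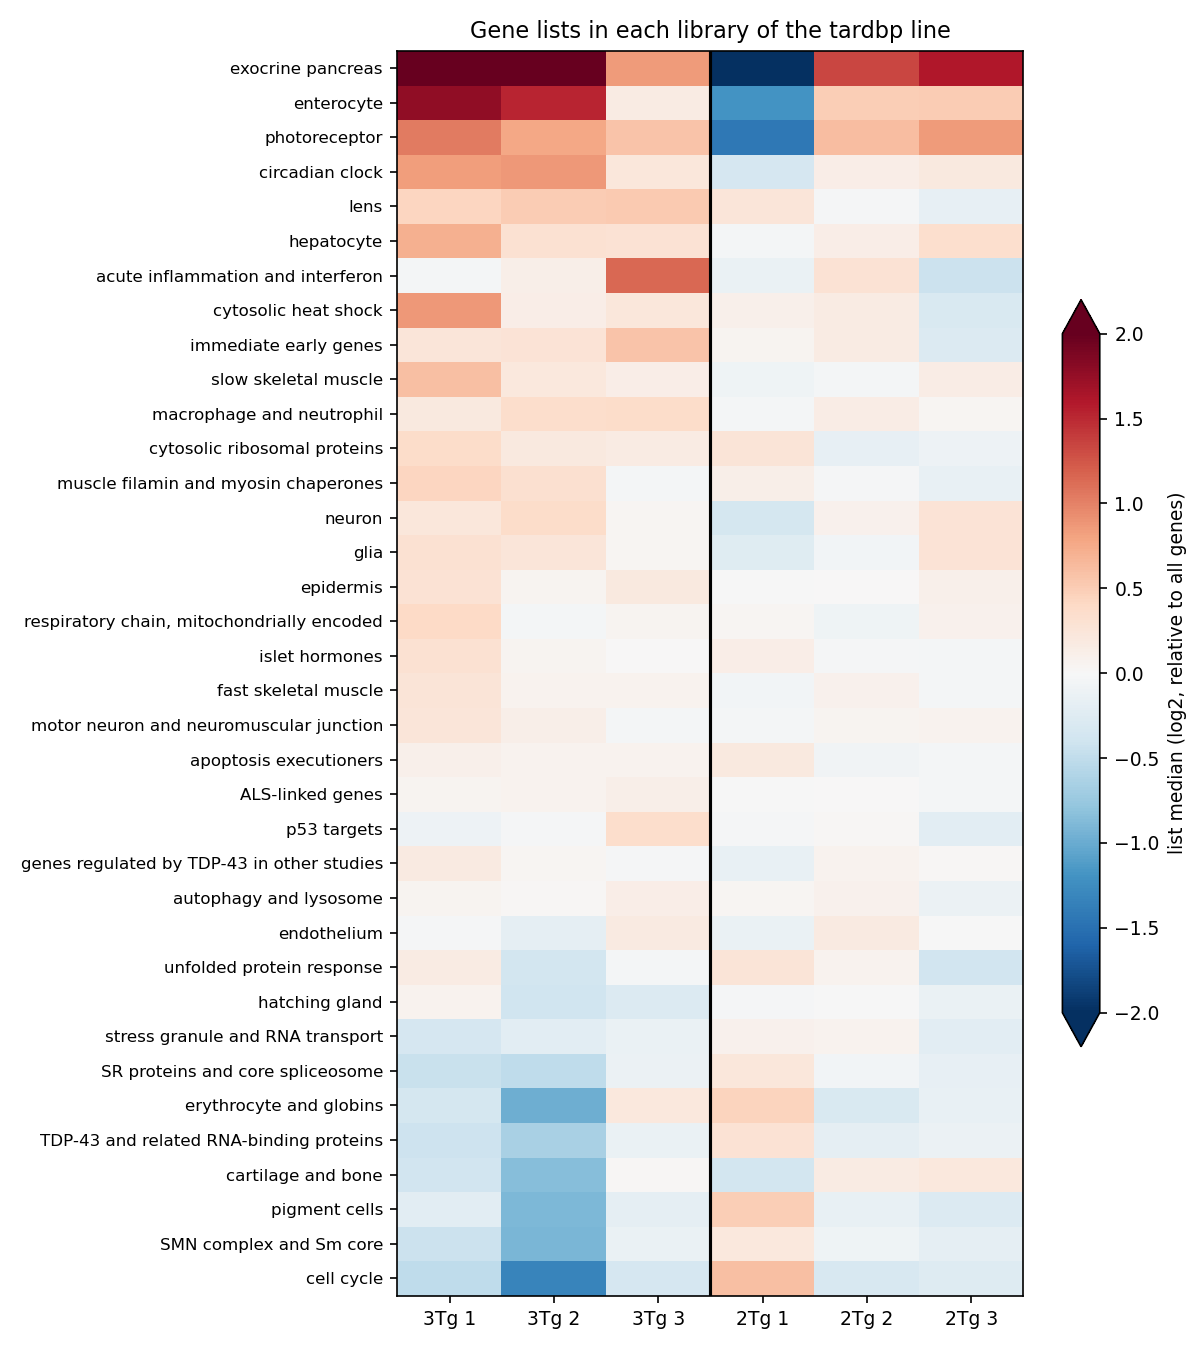
Median log2 level of each of 36 lists in each library against the 2Tg mean, minus the same median over all genes, with 3Tg columns left of 2Tg columns and colour marking higher or lower. The exocrine pancreas row runs from 4.68 in 3Tg replicate 2 to −2.79 in 2Tg replicate 1, and the cell-cycle row from −1.31 in 3Tg replicate 2 to 0.60 in 2Tg replicate 1.

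Most blood, skeleton and pigment genes were lower by sign. Of 32 erythrocyte genes, 28 were lower by sign (median −0.56), and 2 (6.25%) without overlap, fewer than the 15.3% of all genes. The median relative to all genes was −0.43, with −0.13 when 2Tg replicate 1 was left out, −0.197 when 3Tg replicate 2 was and −0.69 when 3Tg replicate 3 was. The embryonic globin hbae1.3 (ENSDARG00000088330, the more abundant of a pair of entries with this symbol) had 1318, 884 and 2451 TPM in 3Tg embryos, against 4813, 1816 and 2163 TPM in 2Tg embryos. hbba2, a beta-globin, had 1.37, 1.09 and 18.7 TPM in 3Tg embryos, against 17.99, 25.9 and 12.9 TPM in 2Tg embryos. Globin genes are close copies that can share reads. 3Tg replicates 1 and 2 were low and 3Tg replicate 3 lay within 2Tg. urod, an enzyme of haem synthesis, had 11.5, 9.24 and 14.5 TPM in 3Tg embryos, against 20.1, 16.8 and 17.6 TPM in 2Tg embryos, lower without overlap. Of 32 cartilage and bone genes, 25 were lower by sign (median −0.49), and 3 (9.38%) without overlap, again under the 15.3% of all genes. The median relative to all genes was −0.36, with −0.16 without 3Tg replicate 2. sox9b, a transcription factor of cartilage, had 7.74, 7.46 and 8.83 TPM in 3Tg embryos, against 14.5, 17.7 and 12.8 TPM in 2Tg embryos. hapln1a, which links hyaluronan to proteoglycans, had 33.6, 16.2 and 44.4 TPM in 3Tg embryos, against 67.1, 89.7 and 57.8 TPM in 2Tg embryos. Both had groups apart. spp1, osteopontin, went the other way in 3Tg replicates 1 and 2, at 17.9, 17.6 and 1.597 TPM in 3Tg embryos, against 0.415, 1.48 and 1.99 TPM in 2Tg embryos.

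Of 23 pigment cell genes, 18 were lower by sign, 5 (21.7%) without overlap, against 15.3% of all genes, with a median of −0.53. tyrp1a, an enzyme of melanin synthesis, had 8.15, 6.56 and 14.5 TPM in 3Tg embryos, against 23.8, 17.3 and 15.9 TPM in 2Tg embryos. gart and paics, enzymes of purine synthesis on which pigment cells draw, had 5.703, 7.47 and 9.56 TPM in 3Tg embryos, against 23.3, 13.7 and 11.6 TPM in 2Tg embryos for gart and 53.6, 25.5 and 141 TPM in 3Tg embryos, against 337, 131 and 103 TPM in 2Tg embryos for paics. The list was highest in 2Tg replicate 1 in 16 of 23 genes, against 20% of all genes. Without that library its median relative to all genes was −0.06 and without 3Tg replicate 2 it was −0.19, against −0.40 with all 6.

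Stress responses were uneven between the 3Tg libraries. The endogenous hsp70l, whose promoter drives the system, had 36.7, 8.73 and 275 TPM in 3Tg embryos, against 13.3, 38.8 and 4.63 TPM in 2Tg embryos, with overlap and a difference of 1.66 (SE 1.15). Of 32 cytosolic heat shock genes, 23 were higher by sign, 3 (9.38%) without overlap against 3.34% of all genes, with a median of 0.35. Relative to all genes that median was 0.48, with 0.29 when 3Tg replicate 1 was left out and 0.31 when 2Tg replicate 3 was. hsp90aa1.2 had 827, 443 and 205 TPM in 3Tg embryos, against 123, 224 and 65.1 TPM in 2Tg embryos. hsph1, an Hsp110, had 101, 84.7 and 65.8 TPM in 3Tg embryos, against 50.2, 61.6 and 41.98 TPM in 2Tg embryos, with groups apart. hsp90ab1, the constitutive Hsp90, had 2878, 3324 and 2200.0 TPM in 3Tg embryos, against 2136, 2009 and 2025 TPM in 2Tg embryos, also apart. hsf2, a heat shock factor, had 42.98, 55.1 and 14.7 TPM in 3Tg embryos, against 17.5, 15.6 and 13.3 TPM in 2Tg embryos. Among these genes 3Tg replicates 1 and 2 were the highest, whereas hsp70l was highest in 3Tg replicate 3. hspb1, the most abundant small heat shock gene named, had 2268, 2757 and 3178 TPM in 3Tg embryos, against 2739, 2777 and 2620.0 TPM in 2Tg embryos, with overlap.

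The summed level of the inflammation genes was highest in 3Tg replicate 3, the library in which zgc:158463, FO704772.3 and AL935186.10 were abundant. In 17 of 20 genes of the list it lay above every 2Tg library, where 17.3% of all genes did so. Without that library the list's median relative to all genes was 0.201, against 0.55 with it, and the summed level was 180.2, 209 and 586 TPM in 3Tg embryos, against 154, 226 and 164 TPM in 2Tg embryos. cxcl8a, a chemokine that draws neutrophils, had 3.097, 2.301 and 33.99 TPM in 3Tg embryos, against 0, 2.14 and 2.83 TPM in 2Tg embryos. stat1a, a transducer of interferon signals, had 26.9, 39.4 and 22.5 TPM in 3Tg embryos, against 14.9, 22.02 and 20.9 TPM in 2Tg embryos, higher without overlap. Immediate early genes were higher by sign in 22 of 26, 3 (11.5%) without overlap against 3.34% of all genes, with a median of 0.34. In 16 of the 26 genes 3Tg replicate 3 lay above every 2Tg library, and without it the median relative to all genes was 0.31, against 0.47 with it. ier2b had 14.02, 15.98 and 18.5 TPM in 3Tg embryos, against 11.3, 9.05 and 9.91 TPM in 2Tg embryos and npas4a, an activity-induced neuronal factor, 4.63, 4.25 and 2.51 TPM in 3Tg embryos, against 2.105, 2.12 and 0.777 TPM in 2Tg embryos. Of 23 p53 targets, 9 were higher by sign and 14 lower, where 62.9% of all genes were lower. The median was −0.12, near the −0.13 of all genes. Without overlap, 3 (13%) were higher and 1 (4.35%) lower, against 3.34% and 15.3% of all genes. Among the p53 targets cdkn1a, the p21 inhibitor of the cell cycle, had 10.3, 14.8 and 14.1 TPM in 3Tg embryos, against 6.41, 7.83 and 7.86 TPM in 2Tg embryos, higher without overlap. gadd45bb was also higher without overlap, with a difference of 0.67, and gadd45ba differed by 1.18 with overlap.

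Of 18 apoptosis genes, 8 were higher by sign and 10 lower, with a median of −0.11. Without overlap, 3 (16.7%) were higher and 1 (5.56%) lower, against 3.34% and 15.3% of all genes. The lower gene, endog, had the smallest p of the list and a difference of −0.81. Its levels were 9.81, 6.37 and 10.97 TPM in 3Tg embryos, against 14.4, 17.3 and 17.3 TPM in 2Tg embryos. bada, a pro-apoptotic BH3-only gene, had 15.8, 14.1 and 12.3 TPM in 3Tg embryos, against 12.1, 2.97 and 2.19 TPM in 2Tg embryos, and mcl1a, which protects from apoptosis, had 103, 178 and 92.6 TPM in 3Tg embryos, against 84.5, 68.7 and 62.4 TPM in 2Tg embryos. Both were higher without overlap. The unfolded protein response had a median of −0.17 over 31 genes, and asns, asparagine synthetase, had 6.88, 8.12 and 11.8 TPM in 3Tg embryos, against 21.5, 12.99 and 14.4 TPM in 2Tg embryos, lower without overlap. The autophagy and lysosome list of 38 genes had a median of −0.10 and the endothelium list of 28 genes one of −0.15. For macrophages and neutrophils, 16 of 25 genes were higher by sign with a median of 0.27. Of the 25, 4 (16%) were higher without overlap, against 3.34% of all genes. mpeg1.2, a perforin-like gene of macrophages, had 10.2, 17.5 and 22.7 TPM in 3Tg embryos, against 6.42, 9.85 and 9.41 TPM in 2Tg embryos, and mfap4, a macrophage marker in zebrafish, had 2.45, 3.57 and 6.28 TPM in 3Tg embryos, against 11.1, 7.198 and 14.4 TPM in 2Tg embryos. These macrophage genes went opposite ways, each without overlap.

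The epidermis list of 29 genes had a median of −0.02. krt4, a keratin of the surface layer, had 3759, 3325 and 4549.8 TPM in 3Tg embryos, against 5979.9, 5642 and 4985 TPM in 2Tg embryos, lower without overlap, and krt17 had 623, 737 and 355 TPM in 3Tg embryos, against 159, 289.6 and 399 TPM in 2Tg embryos. Of 79 cytosolic ribosomal protein genes, 69 were higher by sign, 10 (12.7%) without overlap against 3.34% of all genes, at a small median of 0.13. rps21 had 3102, 3162 and 3002 TPM in 3Tg embryos, against 2799, 2339 and 2558 TPM in 2Tg embryos, a difference of 0.27, or −0.12 in the values as deposited. The 13 mitochondrially encoded respiratory genes had a median of 0.00, and mitochondrial genes took 10.6%, 8.86% and 8.48% of the rescaled total in 3Tg embryos, against 7.98%, 8.17% and 9.08% in 2Tg embryos.

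The knockdown of smn1 was the most similar experiment in the series, with 3 3Tg and 3 2Tg libraries of its own table. The difference between the knockdowns was tested as an interaction in limma over 19261 genes measured in both lines. No gene was called, and the smallest adjusted p was 0.956 in limma. An unadjusted p under 0.05 was reached by 741 genes, a smaller share than the 0.05 that the threshold alone would give. tardbp differed by −0.50 in its own line and −0.21 in the smn1 line, with an interaction of −0.29 (SE 0.29) and adjusted p = 0.999 in limma. tardbpl differed by −0.54 in its own line and −0.21 in the smn1 line, with an interaction of −0.34 (SE 0.27) and adjusted p = 0.999 in limma. The targets were thus not shown to be lower in the tardbp line than in the smn1 line. smn1 differed by −0.09 in the tardbp line and −0.75 in its own, an interaction of 0.66 (SE 0.25, adjusted p = 0.999 in limma).

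The list medians of the knockdowns are set side by side with no test. The SMN complex and Sm core stood at −0.60 in the tardbp line and −0.51 in the smn1 line, and the TDP-43-related RNA-binding proteins at −0.50 in the tardbp line and −0.18 in the smn1 line. For the cell cycle the medians were −0.81 in the tardbp line and −0.20 in the smn1 line, for cartilage and bone −0.49 in the tardbp line and 0.21 in the smn1 line, and for cytosolic heat shock 0.35 in the tardbp line and −0.60 in the smn1 line. The exocrine pancreas was higher in both, at 3.19 in the tardbp line and 1.64 in the smn1 line over the 30 genes measured in both. Other lists had medians close together: enterocyte genes stood at 1.16 in the tardbp line and 1.06 in the smn1 line. In the same order, photoreceptor genes stood at 0.62 and 0.68 and clock genes at 0.57 and 0.64. SR proteins and core spliceosome genes stood at −0.46 and −0.36, and all genes measured in both lines at −0.13 and −0.06. The single gene snrpf differed by −1.45 and −1.31. he1.2 differed by −3.30 in the tardbp line and 1.12 in the smn1 line, an interaction of −4.42 (SE 1.41, adjusted p = 0.999 in limma). hsp70l differed by 1.66 in the tardbp line and −4.18 in the smn1 line, an interaction of 5.84 (SE 1.41, adjusted p = 0.999 in limma). In the smn1 line hsp70l had 7.46, 11.4 and 28.3 TPM in 3Tg embryos, against 237, 236 and 322 TPM in 2Tg embryos. Across the libraries of the lin28a and sox9b lines, normalized in separate tables, it ran from 6.53 to 1154 TPM. The level of hsp70l thus varied widely between libraries, those without a gRNA included.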

How the data were processed

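Whole zebrafish embryos of the tardbp line were compared, 3 3Tg libraries against 3 2Tg libraries, grouped by the labels. The values are TPM per gene, deposited by the authors as a separate table per line (per the file headers). The submitters' processing notes name Salmon 1.10.1, STAR 2.7.10b, Trimmomatic 0.39 and the build GRCz11. Strand use, pooling and depth are not given in the sources used here, so no counting interval can be given. No sequences or coordinates were used here.

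Each library was rescaled to 1000000 TPM without zgc:158463, FO704772.3 and AL935186.10. This removes the share they take from other genes and brings the unequal deposited sums to the same total. Genes with at least 1 TPM in at least 3 of 6 libraries were tested with limma 3.58.1 in R 4.3.3 (two-sided, trended variance prior) on log2(TPM + 1). The p values were adjusted by the Benjamini-Hochberg method over 19591 genes, with a threshold of 0.05. The smn1 comparison added an interaction term over 12 libraries. The procedure was also run on simulated data with independent noise in each gene. That run held no shift shared by the genes of a library, so it does not cover such shifts.

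The 36 gene lists (1158 entries, 1116 matched by symbol, 1083 tested, with 25 genes in more than 1 list), the members and the comparison were chosen with earlier results of these data known, and no list was tested. Named genes are the targets, he1.1, he1.2, hsp70l, flnca and flncb; in each direction the 12 genes of smallest p with a mean of at least 5 TPM, groups apart and no clone code as name, to be replaced by called genes had there been any; and of each list up to 4 members of smallest p and 2 of highest mean. tia1, hnrnpa3, ptf1a, per1a, smn1, clocka, clockb, arntl1a and arntl1b fall outside this rule and were chosen after their values were seen. Some list members that the rule selects are not printed. The main fit did not pair libraries by replicate number. Deviations of same-numbered libraries from their group means correlated at −0.08, 0.14 and −0.25. With 3 libraries a group, these values cannot settle whether same-numbered libraries share an origin.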

Additional observations from a re-analysis of the deposited data

How the results depend on the processing

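Depth is unknown, and with 3 libraries a group the exact permutation test cannot pass 0.05. No gene was called under 10 of the 11 other settings or when any library was left out. As deposited, 2 genes were called by limma: he1.1 at −3.43 (adjusted p = 0.0244) and he1.2 at −3.64 (adjusted p = 0.0195). Genes with an unadjusted p under 0.05 and higher in 3Tg numbered 172 as deposited, 975 after median centring, 911 after quantile normalization and 336 with a minimum of 5 TPM. Lower genes numbered 709 after median centring, 896 after quantile normalization and 2992 with library weights. Without overlap, 34 genes were higher and 5621 lower as deposited, 1241 and 1513 after median centring, and 1156 and 1782 after quantile normalization; 396 were higher with a minimum of 5 TPM. Of genes with an unadjusted p under 0.05, 23.9% were higher as reported, 6.47% as deposited, 57.9% after median centring and 50.4% after quantile normalization. The median difference of all genes was −0.13 as reported and −0.45 as deposited. As deposited, the genes other than the 3 left out summed to 435480 TPM in 3Tg replicate 3, against 981225 to 986511 TPM in the other libraries. Neither the cause of that low sum nor that of the −0.13 as reported was tested.

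With each library left out in turn, genes with an unadjusted p under 0.05 ranged from 206 (without 3Tg replicate 2) to 973 (without 3Tg replicate 3) higher and from 795 (without 3Tg replicate 1) to 2716 (without 3Tg replicate 3) lower. Those without overlap ranged from 863 to 2018 higher and from 3504 to 5760 lower. With a library fewer, groups apart are easier to reach, so these counts do not compare with those of all 6 libraries. Lists whose median lay over 0.5 from that of all genes numbered 6 as reported and 6 to 11 in these fits. tardbp ranged from −0.67 to −0.38 (adjusted p = 0.174 to 0.723 in limma) and tardbpl from −0.72 to −0.44 (adjusted p = 0.161 to 0.723 in limma). In the interaction with smn1, 476 (without smn1 3Tg replicate 1) to 1149 (without smn1 3Tg replicate 3) genes had an unadjusted p under 0.05, and none was called. With the replicate number as a block, tardbp differed by −0.50 (adjusted p = 0.498 in limma) and tardbpl by −0.54 (adjusted p = 0.498 in limma), and no call changed.

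Of 140 genes followed, 130 kept their sign under every setting and leave-out run. The signs of rps21 (−0.12) and ins (−0.12) turned as deposited, smn1 (0.0146) and hspb1 (0.10) after median centring, smn1 (0.0648) and stmn2a (0.0276) after quantile normalization, hspb1 (0.0132) without mitochondrially encoded genes and flnca (0.21) with library weights. With a library left out, hspb1 ranged from −0.12 to 0.13, flnca from −0.46 to 0.21, stmn2a from −0.24 to 0.0443, xbp1 from −0.31 to 0.0719, arntl1b from −0.66 to 0.11, clocka from −0.74 to 0.0546 and clockb from −0.76 to 0.00202.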
